A study of Mus musculus with 2 samples.

Results

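Lymphatic endothelial cells were chosen from the single-cell RNA libraries of endothelium from mouse mammary tumors by their own transcripts, and 211 of 14795 cell barcodes met the rule. Of these, 191 came from the PyMT-N library and 20 from the PyMT-M library. A barcode qualified with at least 1000 detected genes, at most 10% mitochondrial UMIs (unique molecular identifiers, 1 per captured transcript), at least 3 UMIs of Prox1, Mmrn1, Reln and Lyve1 from at least 2 of these 4 genes, at least 1 UMI of Pecam1 or Cdh5, and at most 1 UMI over Ptprc, Csf1r, Krt8, Krt18 and Rhox5, which mark leukocytes and tumor cells. Blood endothelial cells, set beside them, had at least 5 UMIs of Pecam1, Flt1, Emcn and Kdr, no Prox1 UMI and the same limit on leukocyte and tumor genes. They numbered 1014 in PyMT-N and 563 in PyMT-M. The 4 lymphatic genes and the blood endothelial genes of these rules were used to choose the cells, so their values are descriptions and not results.

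PyMT-M and PyMT-N are cell lines derived as sublines from MMTV-PyMT mammary tumors, in which the mammary tumor virus promoter drives the polyoma middle T oncogene, and PyMT-M is classed as macrophage-rich (High-MAC) and PyMT-N as macrophage-poor (Low-MAC). Each was transplanted into the fourth mammary fat pad of female C57BL/6 mice aged 6 to 8 weeks, so the vessels are those of the host, and no further treatment or allele separates the groups. After dissociation, leukocytes (CD45+) and red cells (Ter119+) were depleted, cells with CD31 (the product of Pecam1) and CD144 (the product of Cdh5) were pulled out with beads, and CD31+ CD144+ cells were sorted. Cells of 3 tumors were then pooled into 1 library for each line, with no mark of the tumor a cell came from. With 1 library for each condition no difference between PyMT-M and PyMT-N has a replicate check, no p-value was computed, and the tumor line, the pool and the library cannot be told apart. Despite the sort, 4765 PyMT-M and 3317 PyMT-N cells that passed the quality limits had no UMI of Pecam1, Cdh5, Flt1, Emcn or Kdr. The PyMT-M library held 141067264 UMIs and the PyMT-N library 116150425. They shared 20 barcode sequences, of which 2 belonged to a lymphatic cell in one of the libraries and none to a lymphatic cell in both.

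Lymphatic endothelium lines the vessels that collect fluid, fat and immune cells from tissues and return them to the blood through lymph nodes. Its identity is set by the transcription factor Prox1, which is induced in embryonic veins together with Sox18 and Nr2f2, and its growth is driven by Vegfc acting on the receptor Flt4 (VEGFR3). Blind-ended capillaries carry the hyaluronan receptor Lyve1 and secrete Ccl21, which draws dendritic cells that bear Ccr7, whereas collecting vessels and their valves depend on Foxc2, Gata2 and Itga9. Blood endothelium relies more on Flt1, Kdr, Nrp1 and Notch signaling and rests on a continuous basement membrane.

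Promoter sequences of 3 genes on which the description turns are shown to give the DNA upstream of a gene that chose the cells, of the chemokine by which lymphatics guide dendritic cells, and of a membrane marker that the choice did not use. They are the 250 bases before the annotated start, 5′ to 3′ on the gene's strand, from RefSeq on GRCm38.p6, and capitals mark a match to 1 of 5 motifs searched on both strands.
Mmrn1: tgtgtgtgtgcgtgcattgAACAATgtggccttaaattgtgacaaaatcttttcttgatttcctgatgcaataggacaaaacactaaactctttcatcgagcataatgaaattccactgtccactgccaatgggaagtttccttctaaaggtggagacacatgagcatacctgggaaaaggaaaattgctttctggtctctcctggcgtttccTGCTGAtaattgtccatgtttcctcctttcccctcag
Ccl21a: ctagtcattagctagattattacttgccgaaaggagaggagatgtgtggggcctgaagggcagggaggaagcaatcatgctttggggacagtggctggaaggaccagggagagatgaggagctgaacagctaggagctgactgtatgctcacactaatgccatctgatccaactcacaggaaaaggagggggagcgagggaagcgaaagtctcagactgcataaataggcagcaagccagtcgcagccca
Pdpn: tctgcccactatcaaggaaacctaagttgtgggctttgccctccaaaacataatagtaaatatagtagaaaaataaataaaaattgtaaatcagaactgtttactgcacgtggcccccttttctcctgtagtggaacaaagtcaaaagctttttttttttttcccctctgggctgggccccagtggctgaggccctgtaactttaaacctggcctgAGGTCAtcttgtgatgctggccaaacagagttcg
Mmrn1 lies on the plus strand (chr6:60944067-60944316), Ccl21a on the minus strand (chr4:42773992-42774241) and Pdpn on the minus strand (chr4:143299565-143299814). The Mmrn1 window held AACAAT (a SOX motif) and TGCTGA (a MAF half-site), the Pdpn window held AGGTCA (a nuclear receptor half-site), and the Ccl21a window held none of these, nor CCGGAA, which ETS factors bind, nor AGATAA, the site of the GATA family. No motif overlapped another in these windows. Over 27025 promoter windows of 300 bases, from 250 before to 50 after the start, AACAAT was found in 10.9%, TGCTGA in 19.1%, AGGTCA in 16.0%, CCGGAA in 15.2% and AGATAA in 11.4%, so a match was common and is a description only. Lyve1 and Maf had no entry among the promoters used here.

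Lymphatic cells made up 15.9% of lymphatic and blood endothelial cells in PyMT-N (191 of 1205, exact binomial interval 13.8 to 18.0%) and 3.43% in PyMT-M (20 of 583, 2.11 to 5.25%). As a share of all cells past the quality limits they were 3.43% in PyMT-N (2.96 to 3.94%) and 0.318% in PyMT-M (0.195 to 0.491%). The PyMT-N share was the higher on both denominators. These and all later intervals cover counting error at 95% only, not the spread between tumors nor, for levels, that between cells. The CD31 and CD144 selection can itself set the shares. Lymphatic cells of PyMT-N had a median of 11250 UMIs (2073 to 39975) and 3819 detected genes. Those of PyMT-M had a median of 4316.5 UMIs (2475 to 7800) and 1963.5 genes, and blood endothelial cells differed in depth in the same direction, with medians of 12451.5 UMIs in PyMT-N and 5312 in PyMT-M. Of the PyMT-M lymphatic cells 8 of 20, and of the PyMT-N cells 184 of 191, lay within 2-fold of the median gene number of their library, a filter in the study's methods that was not applied here. When every cell was thinned to 3000 UMIs before the rule was applied, the shares were 15.4% in PyMT-N and 2.13% in PyMT-M. Levels are given below as CPM, the UMIs of a gene for every 1000000 UMIs summed over the cells of a class and library. On this scale 1 UMI is 0.415 CPM in PyMT-N and 11.7 CPM in PyMT-M lymphatic cells, so low levels in PyMT-M rest on very few transcripts.

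Of the 4 choosing genes, Mmrn1, a secreted multimerin, was found in 191 of 191 PyMT-N cells and 14 of 20 PyMT-M cells. Prox1 was found in 187 of 191 and 18 of 20. Reln, which encodes the secreted glycoprotein reelin, was found in 176 of 191 and 4 of 20, and Lyve1 in 112 of 191 and 14 of 20. In PyMT-N 103 cells carried all 4 genes, 78 carried 3 and 10 carried 2, whereas 13 of the 20 PyMT-M cells carried only 2. The summed level of Prox1 was 774 CPM in PyMT-N and 811 CPM in PyMT-M. Mmrn1 stood at 1127 and 752 CPM, Reln at 665 and 94.0 CPM, and Lyve1 at 472 and 1692 CPM in the same order. The choosing genes therefore came in different proportions in the 2 libraries. At the edge of the rule, 1 PyMT-M cell had exactly 3 UMIs of the 4 genes, and no cell past the other limits had 2 UMIs from 2 genes, or 3 or more from 1 gene. In PyMT-N 26 members carried 1 UMI of a leukocyte or tumor gene, with Ccl21a at 12594 CPM, and 14 cells were left out with 2 or more such UMIs, with Ccl21a at 5707 CPM. In PyMT-M 2 cells were left out in this way.

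The markers that the choice did not use fit the label in PyMT-N. Ccl21a, the chemokine that guides dendritic cells into lymphatics, stood at 12755 CPM in PyMT-N lymphatic cells and 36.0 CPM in the blood endothelial cells of that library, 354 times as high (324 to 388). In PyMT-M it stood at 1469 CPM in lymphatic cells, from 125 UMIs in 5 of 20 cells, and blood endothelial cells had 1 UMI in all. Ccl21a was found in 91.1% of PyMT-N lymphatic cells, against 6.71% of blood endothelial and 6.75% of non-endothelial cells there. At 3000 UMIs per cell the shares were 89.5%, 2.09% and 1.18%, while 3 of 13 PyMT-M lymphatic cells deep enough had a Ccl21a UMI. Reads from the near-identical Ccl21 copies could be split in counting, and Ccl21d gave 37 UMIs in PyMT-N lymphatic cells. Pdpn (podoplanin), a membrane glycoprotein that lymphatic endothelium uses to bind platelets, stood at 255 CPM in PyMT-N and 223 CPM in PyMT-M lymphatic cells, against 0.796 CPM in PyMT-N blood endothelial cells and no UMI in those of PyMT-M. Flt4, the receptor for Vegfc, stood at 762 and 364 CPM in lymphatic cells against 109 and 47.0 CPM in blood endothelial cells, 7.0 times (6.53 to 7.50) and 7.76 times (5.09 to 11.5) as high. Pdpn and Flt4 were thus higher in lymphatic than in blood endothelial cells of both libraries. Pdpn was also found in 69.0% of PyMT-N non-endothelial cells (22.1% at 3000 UMIs) at 86.5 CPM, against 88.0% (52.6%) of lymphatic cells.

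**Figure D1:**
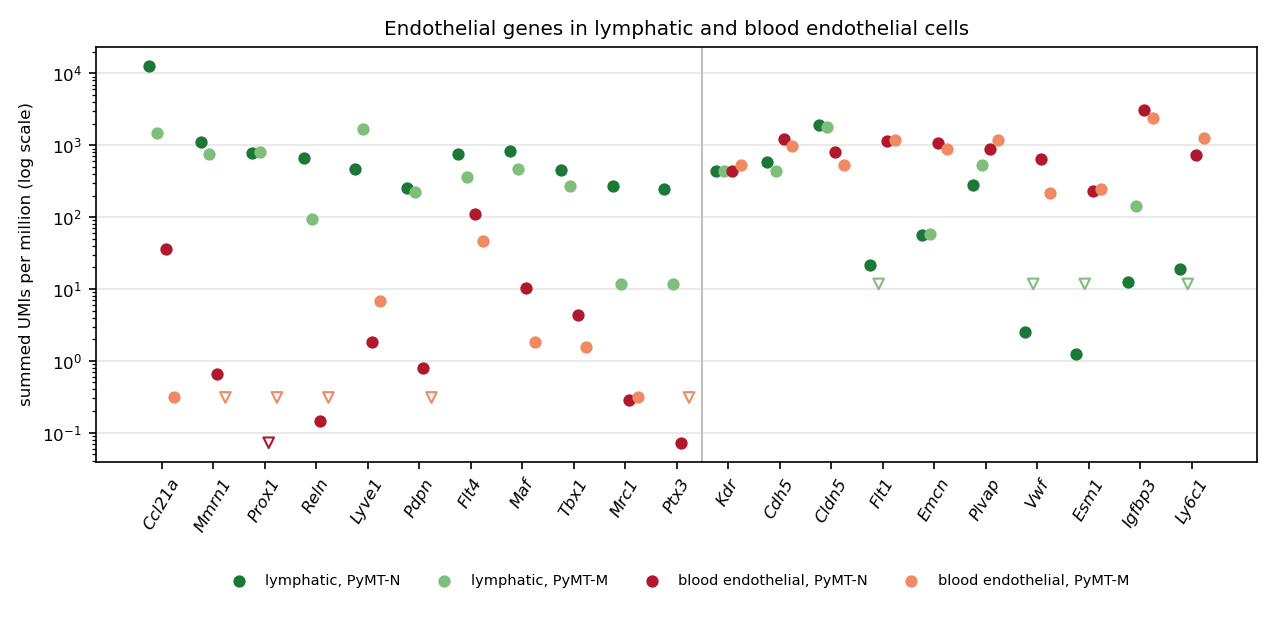
Level of 21 endothelial genes in the 4 cell classes, in CPM on a log scale. Filled points are levels, and open triangles mark genes with no UMI, drawn at the level of 1 UMI. Ccl21a spans 12755 CPM in PyMT-N lymphatic cells to 0.309 CPM in PyMT-M blood endothelial cells, and the genes right of the grey line are shared with or higher in blood endothelium.

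Over all genes, 6896 had a mean of at least 20 CPM over the 2 classes in PyMT-N. At a 4-fold difference 239 of them were higher in lymphatic cells (3.47% of genes ranked) and 239 were lower (3.47%), and the median log2 ratio was 0.10. Because the cells were chosen on this contrast, the counts describe the class and test nothing. Of the 239 higher genes, 235 were outside the choosing rules and 229 had UMIs in PyMT-M. There 205 were also higher in lymphatic cells, 166 of them past 4-fold, and 24 went the other way. In PyMT-M lymphatic cells 30 of the 239 had no UMI, and this group overlaps with the counts by direction. Of the 239 lower genes, 237 were outside the choosing rules. In PyMT-M 225 of the 239 were also lower, 91 past 4-fold, and 14 went the other way. Among these 239, 93 had no UMI in PyMT-M lymphatic cells and are also counted by direction. The median log2 ratio of all 6896 genes in PyMT-M was 0.0014. Cells of both libraries were chosen by the same rules, so the counts in PyMT-M are no separate check.

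Among transcription factors of vascular fate, Maf, which is known to act in lymphatic maturation, stood at 823 CPM in PyMT-N and 470 CPM in PyMT-M lymphatic cells, against 10.4 and 1.85 CPM in blood endothelial cells. Tbx1, which is required for lymphatic growth, stood at 450 and 270 CPM against 4.41 and 1.54 CPM. Nr2f2 (COUP-TFII), a partner of Prox1 also known from veins, stood at 623 and 681 CPM against 82.3 and 98.5 CPM, 7.57 times (7.0 to 8.18) and 6.92 times (5.14 to 9.17) as high. These 3 genes were on the lymphatic side in both libraries. Sox18, which induces Prox1 in the embryo, stood at 151 CPM in lymphatic and 228 CPM in blood endothelial cells of PyMT-N and was on the blood side. Sox17, an arterial factor, had 1 UMI in PyMT-N lymphatic cells and none in those of PyMT-M, against 92.2 and 78.2 CPM in blood endothelial cells. Mecom, a zinc finger factor, stood at 9.97 CPM against 912 CPM in PyMT-N and had 1 UMI in PyMT-M lymphatic cells. Of 20 ranked factors in the list of 25, 4 were past 4-fold higher and 4 lower in PyMT-N, with a median log2 ratio of 0.41, beside 3.47% each way and a median of 0.10 over all ranked genes. The list holds the choosing gene Prox1, which blood endothelial cells were required to lack. Erg and Fli1, ETS factors of all endothelium, stood at 114 and 295 CPM in PyMT-N lymphatic cells and at 202 and 393 CPM in blood endothelial cells, both within 4-fold.

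The VEGF receptors divided between the classes. Kdr (VEGFR2) stood at 443 CPM in lymphatic and 441 CPM in blood endothelial cells of PyMT-N, a ratio of 1.00 (0.940 to 1.07), and at 435 and 530 CPM in PyMT-M. Flt1 (VEGFR1) stood at 21.6 CPM in PyMT-N lymphatic cells, 78.8% of it from 1 cell, and was not seen in PyMT-M lymphatic cells, against 1135 and 1192 CPM in blood endothelial cells. Kdr and Flt1 were choosing genes of the blood endothelial class, so their levels there are not independent of the choice. Nrp2, the co-receptor of Flt4, stood at 977 CPM in lymphatic and 179 CPM in blood endothelial cells of PyMT-N (5.45 times, 5.15 to 5.77), but at 188 and 165 CPM in PyMT-M. Nrp1, the co-receptor of Kdr, stood at 12.0 CPM against 490 CPM in PyMT-N and had no UMI in PyMT-M lymphatic cells. Vegfc itself gave 3 UMIs in PyMT-N lymphatic cells and none in those of PyMT-M, and stood at 86.0 and 111 CPM in blood endothelial cells. In non-endothelial cells Vegfc stood at 44.97 and 0.774 CPM. Its receptor Flt4 was higher in lymphatic cells but was also found in 67.6% of PyMT-N and 22.2% of PyMT-M blood endothelial cells. At 3000 UMIs per cell these shares were 28.0% and 12.8%, against 81.6% and 38.5% of lymphatic cells. Without thinning, 0.633% of PyMT-N and 0.105% of PyMT-M non-endothelial cells had a Flt4 UMI. Angpt2, an angiopoietin needed for lymphatic remodeling, stood at 472 CPM against 119 CPM in PyMT-N and at 258 against 280 CPM in PyMT-M, a log2 ratio of -0.12 (-0.80 to 0.49) from 22 UMIs. Of these, 21 came from the 14 PyMT-M cells that had an Mmrn1 UMI, which stood at 355 CPM and so above blood endothelium, and no direction is read for PyMT-M.

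Among surface receptors for uptake, Mrc1, the mannose receptor that macrophages also carry, stood at 269 CPM in PyMT-N lymphatic cells against 0.289 CPM in blood endothelial cells, and gave 1 UMI in PyMT-M lymphatic cells. Ptx3, a secreted pentraxin of innate immunity, stood at 245 CPM in PyMT-N lymphatic cells, with 1 UMI in blood endothelial cells there and 1 UMI in PyMT-M lymphatic cells. Stab1 (stabilin-1) stood at 901 and 446 CPM in lymphatic cells of PyMT-N and PyMT-M against 209 and 140 CPM in blood endothelial cells. Its relative Stab2, which binds hyaluronan as Lyve1 does, stood at 71.9 and 435 CPM in lymphatic cells and had no UMI in blood endothelial cells of either library. Ackr2, a decoy receptor that clears inflammatory chemokines, stood at 165 and 153 CPM in lymphatic cells against 12.7 and 1.24 CPM. Mrc1 and Ptx3 were thus seen mainly in PyMT-N, but the PyMT-M cells were few and shallow. At 3000 UMIs per cell Mrc1 and Ptx3 were each found in 0 of 13 PyMT-M cells, which allows a share of up to 24.7%. In PyMT-N they were found in 42.6% and 40.5%. Stab1, Stab2 and Ackr2 were on the lymphatic side in both libraries.

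Of secreted signals other than Ccl21a, Il7, a survival factor for lymphocytes, stood at 33.7 and 47.0 CPM in lymphatic cells against 1.30 and 2.78 CPM in blood endothelial cells, although it gave only 4 UMIs in PyMT-M. Nts (neurotensin), a peptide hormone, stood at 811 and 1880 CPM against 31.7 and 26.9 CPM, 25.6 times (23 to 28.4) and 70.0 times (53.5 to 91.9) as high. Kitl, the ligand of Kit, stood at 6.65 CPM against 311 CPM in PyMT-N and 47.0 against 296 CPM in PyMT-M. Sema3a and Sema3d, secreted semaphorins that steer axons and vessels, stood at 319 and 299 CPM in PyMT-N lymphatic cells against 12.8 and 0.579 CPM, and at 423 and 775 CPM in PyMT-M against 6.49 CPM and no UMI. Of 14 ranked axon guidance genes 4 were past 4-fold higher and 2 lower, with a median of 0.73, beside 3.47% each way and 0.10 over all ranked genes. Ccl21a gave 98.0% of the UMIs of the 17 listed chemokines and cytokines in PyMT-N lymphatic cells. Of the 6 ranked genes of this list, 2 were past 4-fold higher (Ccl21a and Ccl2) and 2 lower, beside 3.47% each way over all ranked genes.

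Nlgn1 (neuroligin-1), a synaptic adhesion protein, stood at 485 CPM in 103 of 191 cells, Gap43, a protein of growing axons, at 472 CPM in 143 cells, and Scn3a, a sodium channel subunit, at 539 CPM in 166 cells. Blood endothelial cells of PyMT-N had 0.145, 1.30 and 0.362 CPM of these genes. In PyMT-M lymphatic cells neither Nlgn1 nor Gap43 had a UMI, and Scn3a gave 15 UMIs in 4 cells. Col23a1, a transmembrane collagen, stood at 403 CPM in PyMT-N lymphatic cells and also had no UMI in PyMT-M. With no UMI in 20 cells, the share of PyMT-M cells with a UMI could still be up to 16.8%. Plce1, a phospholipase, gave 365 CPM in PyMT-N lymphatic cells and 8 UMIs in 3 PyMT-M cells, against 0.0723 and 6.80 CPM in blood endothelial cells. Pard6g, a cell polarity gene, was seen in 180 PyMT-N cells (425 CPM) and 9 PyMT-M cells (176 CPM), against 0.434 CPM and no UMI in blood endothelial cells.

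Matrix genes separated lymphatic from blood endothelium in both directions. Of 13 basement membrane genes, all ranked, 7 were past 4-fold lower in PyMT-N lymphatic cells and none was higher. Over all ranked genes 3.47% were past 4-fold each way. The basement membrane genes had a median log2 ratio of -2.17, against 0.10 over all ranked genes. Their summed level was 4211 CPM in lymphatic and 18506 CPM in blood endothelial cells of PyMT-N, and 3196 and 14218 CPM in PyMT-M. Col4a1, a chain of the main basement membrane collagen, stood at 720 against 4049 CPM in PyMT-N (5.62 times lower, 5.36 to 5.90) and 787 against 2722 CPM in PyMT-M (3.46 times lower, 2.72 to 4.46). Sparc, which binds collagen IV, stood at 827 against 7270 CPM and 658 against 6415 CPM. The laminin chain Lama4 was within 4-fold, at 602 against 758 CPM and 505 against 512 CPM. In the other direction, Fn1 (fibronectin) stood at 1793 against 349 CPM in PyMT-N and 952 against 174 CPM in PyMT-M, and its receptor subunit Itga9, needed for lymphatic valves, at 547 against 145 CPM and 634 against 81.5 CPM. Fbn1 (fibrillin-1) stood at 203 against 8.25 CPM and 164 against 18.5 CPM, and Timp2, an inhibitor of matrix proteases, at 386 against 62.6 CPM and 376 against 54.1 CPM. Of 17 ranked genes of secreted matrix and anchoring, 6 were past 4-fold higher and 2 lower, with a median of 1.31. The values over all ranked genes were 3.47% each way and 0.10. The list holds the choosing genes Reln and Mmrn1, both of which are among the 6 higher genes.

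The genes lowest in lymphatic cells were those of blood vessels. Igfbp3, which binds insulin-like growth factors, stood at 12.5 CPM in lymphatic and 3084 CPM in blood endothelial cells of PyMT-N, 247 times lower (173 to 367), and at 141 and 2428 CPM in PyMT-M. Vwf, the clotting factor stored in blood endothelium, gave 6 UMIs in PyMT-N lymphatic cells and none in PyMT-M, against 644 and 218 CPM in blood endothelial cells. Gpihbp1, which carries lipoprotein lipase across capillaries, stood at 19.9 against 1427 CPM and 70.5 against 1509 CPM. Esm1, a marker of sprouting tip cells, gave 3 UMIs in PyMT-N lymphatic cells and none in PyMT-M, against 228 and 245 CPM. Cd93, a receptor of angiogenic endothelium, stood at 12.9 against 908 CPM and 47.0 against 721 CPM, and Ly6c1, a surface marker of mouse blood capillaries, at 18.7 against 732 CPM with no UMI in PyMT-M lymphatic cells. Of the 20 genes with the lowest ratios in PyMT-N, 10 had no UMI in PyMT-M lymphatic cells, and Bmp2 alone stood higher there than in blood endothelial cells, from 3 cells that had no Mmrn1 UMI. Of 26 blood endothelial identity genes, all ranked, 16 were past 4-fold lower and none higher, with a median of -4.69. Over all ranked genes 3.47% were past 4-fold each way, with a median of 0.10. Of 8 ranked Notch pathway genes 4 were lower, beside 3.47% of all ranked genes. Among the 4 was the ligand Dll4 (33.2 against 254 CPM), while the receptor Notch1 was within 4-fold (140 against 170 CPM). Dll4 was nearer between the classes in PyMT-M, at 129 against 199 CPM. Of 14 ranked lipid and solute genes 4 were lower, with a median of -1.44, beside 3.47% lower and 0.10 over all ranked genes.

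**Figure D2:**
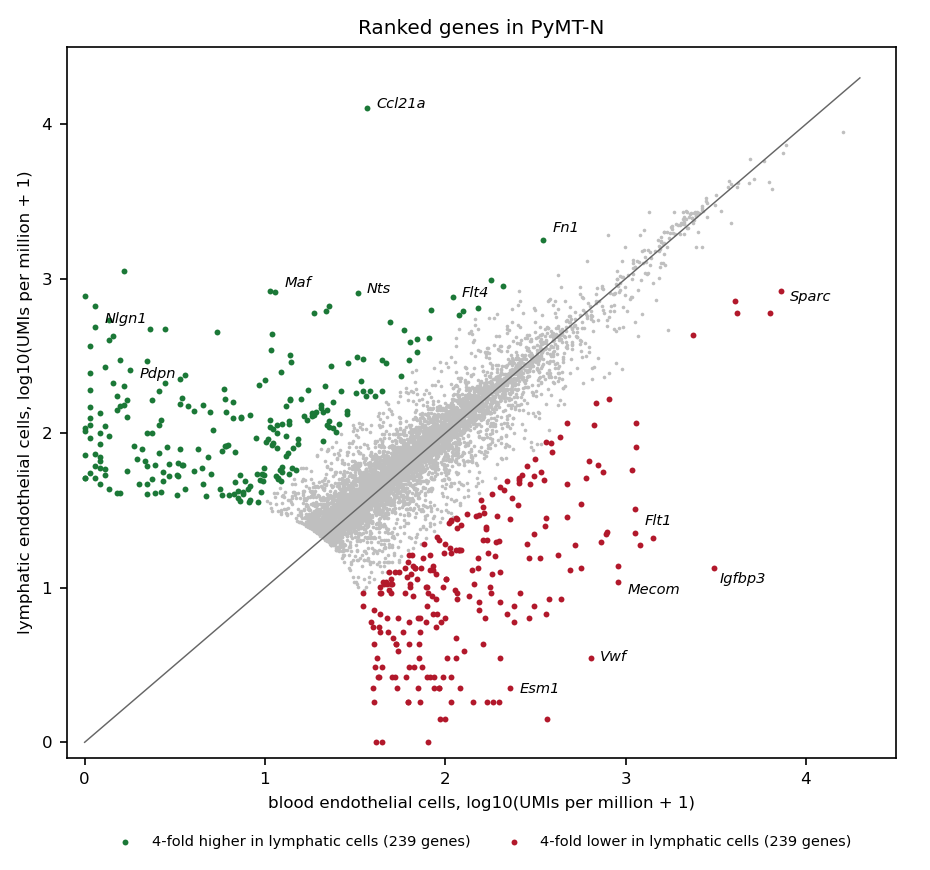
Each of 6896 ranked genes in PyMT-N, by its level in blood endothelial cells (x axis) and lymphatic endothelial cells (y axis), as log10 of CPM plus 1, with the line of equality. Green points are the 239 genes 4-fold higher in lymphatic cells, led in level by Ccl21a, and red points are the 239 genes 4-fold lower.

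The endothelial genes Cldn5, Cdh5 and Pecam1 were found in both classes, at levels within 4-fold. Esam, also an endothelial marker, was far lower in PyMT-N lymphatic cells, at a log2 ratio of -5.16. Cldn5, the main tight junction claudin of endothelium, stood at 1913 and 1821 CPM in lymphatic cells of PyMT-N and PyMT-M against 795 and 538 CPM in blood endothelial cells. Cdh5 stood at 593 and 435 CPM against 1239 and 982 CPM, and Pecam1 at 523 and 693 CPM against 1128 and 1292 CPM. The transcripts of both antigens of the sort were thus lower in PyMT-N lymphatic cells, by 2.09 and 2.16 times, and both were among the choosing genes of the classes. Of 14 ranked junction genes 2 were past 4-fold lower and none higher. Over all ranked genes 3.47% were past 4-fold each way, with a median of 0.10. The 16 genes of MHC class I presentation gave no gene past 4-fold in either direction, with a median of -0.02. Among 20 ranked interferon alpha/beta genes only Ifi27l2a passed, a share near the 3.47% higher over all ranked genes. Ifi27l2a stood at 829 against 9.62 CPM in PyMT-N and 3290 against 292 CPM in PyMT-M.

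Summed over whole lists, the 20 lymphatic markers not used to choose the cells had a log2 ratio of 3.58 in PyMT-N and 2.80 in PyMT-M. Of these genes 14 were past 4-fold higher and none lower in PyMT-N, beside 3.47% each way over all ranked genes. Ccl21a gave 62.8% of the UMIs of these markers in PyMT-N lymphatic cells. The 8 genes of initial capillaries, among them choosing genes, had ratios of 5.42 and 3.30. Ccl21a gave 79.4% of their UMIs in PyMT-N lymphatic cells, and the choosing gene Lyve1 38.8% in those of PyMT-M. The 14 genes of collecting vessels and valves were at -0.06 in PyMT-N and 0.98 in PyMT-M. Of the 10 ranked 2 were higher and 1 lower, beside 3.47% each way over all ranked genes, and their median was 1.29 in PyMT-N. Esam gave 48.3% of the UMIs of this list in PyMT-N blood endothelial cells, and Klf2 35.8% in PyMT-M lymphatic cells. The 11 genes of IGF signaling were at -2.46 and -1.35, with 3 of 8 ranked lower, beside 3.47% of all ranked genes. MHC class II genes summed to 16.6 CPM in PyMT-N and 294 CPM in PyMT-M lymphatic cells, the latter from 25 UMIs, against 12.7 and 24.7 CPM in blood endothelial cells. Of the 25 UMIs, 7 came from the 14 PyMT-M cells with an Mmrn1 UMI (118 CPM) and 18 from the 6 without (695 CPM). Proliferation genes (S phase and mitosis) stood at 709 against 770 CPM in PyMT-N, a log2 ratio of -0.12. In PyMT-M they stood at 235 CPM in lymphatic cells, from 20 UMIs, against 1253 CPM in blood endothelial cells, a log2 ratio of -2.42 (-3.13 to -1.79). Mki67, a marker of cycling cells, was found in 17 of 191 PyMT-N lymphatic cells and in 0 of 20 in PyMT-M, which allows a share of up to 16.8% at the lower depth of those cells.

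**Figure D3:**
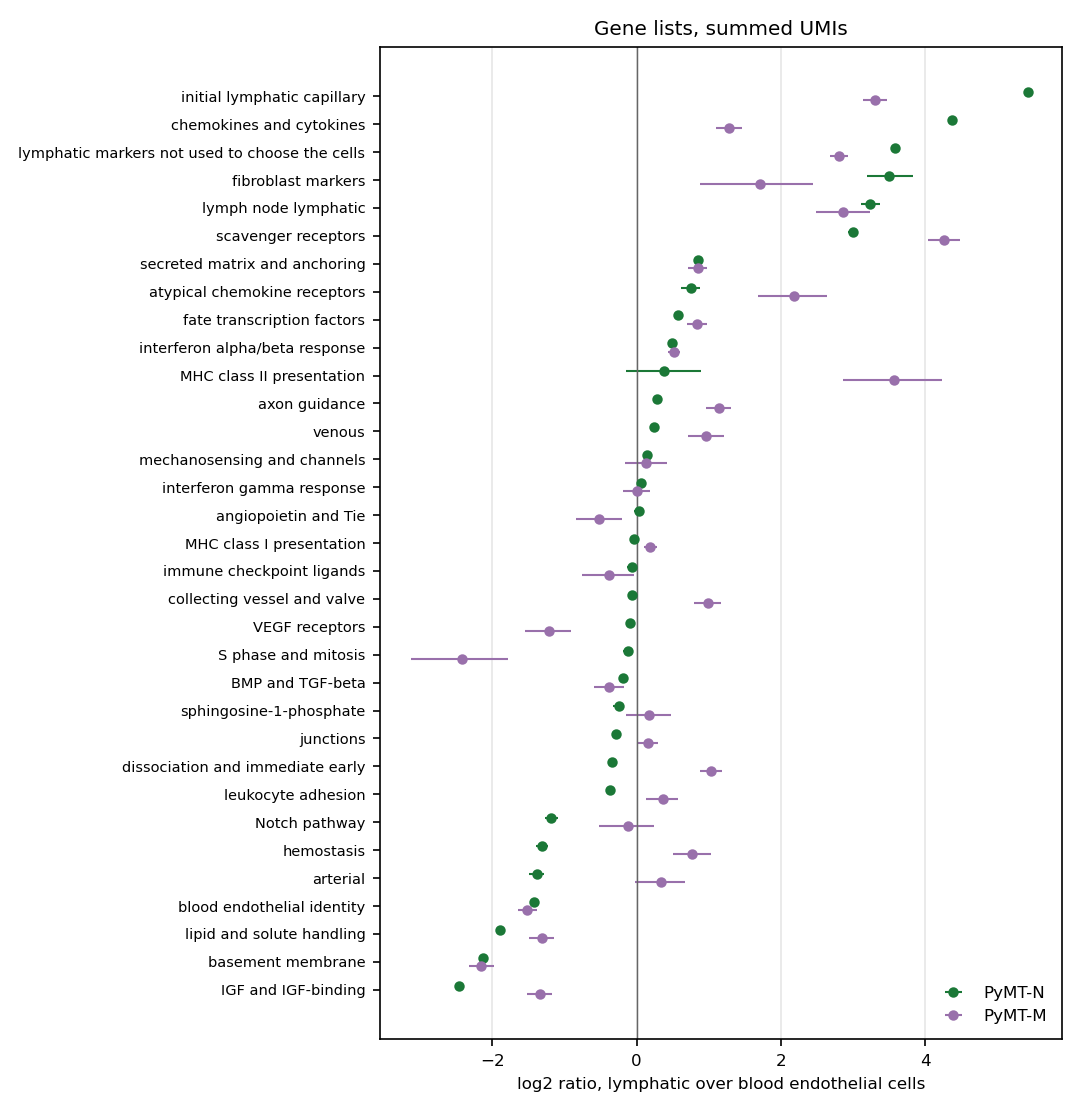
Log2 ratio of summed CPM in lymphatic over blood endothelial cells (x axis) for gene lists with at least 10 UMIs, in PyMT-N (green) and PyMT-M (purple). Bars are 95% intervals for counting error only. The lymphatic markers not used to choose the cells and the genes of initial capillaries, which include choosing genes, lie to the right in both libraries. Lists of blood identity and basement membrane lie to the left in both. The list made of the 4 choosing genes is not drawn.

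Markers of other cell types were checked as whole lists. The 10 macrophage markers summed to 349 CPM in PyMT-N lymphatic cells against 23.6 CPM in blood endothelial cells, of which Mrc1 gave 77.0%. Adgre1 and Ptprc had no UMI, C1qa, C1qb and C1qc had 3 UMIs each, and Cd14 stood at 52.3 against 6.29 CPM. In PyMT-M lymphatic cells 8 of the 10 were at 0 and the sum was 23.5 CPM. The 6 fibroblast markers summed to 104 CPM against 9.19 CPM in PyMT-N, of which Dcn (decorin) gave 91.6%. Dcn stood at 95.6 and 176 CPM in lymphatic cells of PyMT-N and PyMT-M against 0.362 and 0.309 CPM in blood endothelial cells, while the collagen gene Col1a1 stood at 2.49 CPM and no UMI, and Lum had no UMI in any of these classes. The part of RNA from other cell types in these values was not tested. The 6 pericyte markers summed to 51.5 CPM (Kcnj8 87.9%) with Rgs5 at 0, the 8 tumor markers to 11.2 CPM, the 6 lymphocyte markers to 1.25 CPM and the 4 erythroid markers to 0.415 CPM in PyMT-N lymphatic cells. The last 3 lists had no UMI in PyMT-M lymphatic cells. Ptprc, Csf1r, Krt8, Krt18 and Rhox5 were held low by the choice of cells.

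The 191 PyMT-N lymphatic cells differed from one another by more than counting error in part of the genes. Of 7594 genes with at least 0.2 UMIs per cell, 1136 (14.96%) had a variance at least 2 times that expected from counting at each cell's depth, and the median gene was at 1.23 times. With every cell thinned to 3000 UMIs 173 of 2988 genes reached that limit, and since this measure grows with a gene's level it does not rank genes by evenness. Ccl21a was at 57.2 times (19.6 when thinned) and ran from none through a median of 132 to 502 UMIs per 10000 in single cells, with no cell giving over 1.87% of its UMIs. Prox1 was at 4.64 times (1.60 when thinned), Mmrn1 at 5.35 (2.01) and Pdpn at 2.32 (1.21), at means of 9.75, 14.2 and 3.21 UMIs per cell against 161 for Ccl21a, and Prox1 and Mmrn1 were choosing genes. Lyve1, also a choosing gene, was at 20.6 times (6.996 when thinned) at a mean of 5.94 UMIs and was found in 58.6% of the cells. Some other high values came from few cells. Igfbp5 (87.6 times, 29.3 when thinned) had 90.6% of its UMIs in 1 cell, Flt1 (32.9 and 3.82) 78.8%, Glycam1 (38.0 and 10.99) 69.6% and Cxcl10 (76.7 and 28.96), a chemokine induced by interferon, 52.1%. Rsad2, an interferon-induced antiviral gene, was at 64.8 times (5.42 when thinned) and found in 13.6% of cells. Malat1, a nuclear RNA found in every cell, was at 62.0 times (16.5), the histone genes H2ac8 and H2ac24 at 42.2 (5.56) and 35.4 times (8.90), and the ferritin gene Fth1 at 33.6 times (7.35).

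**Figure D4:**
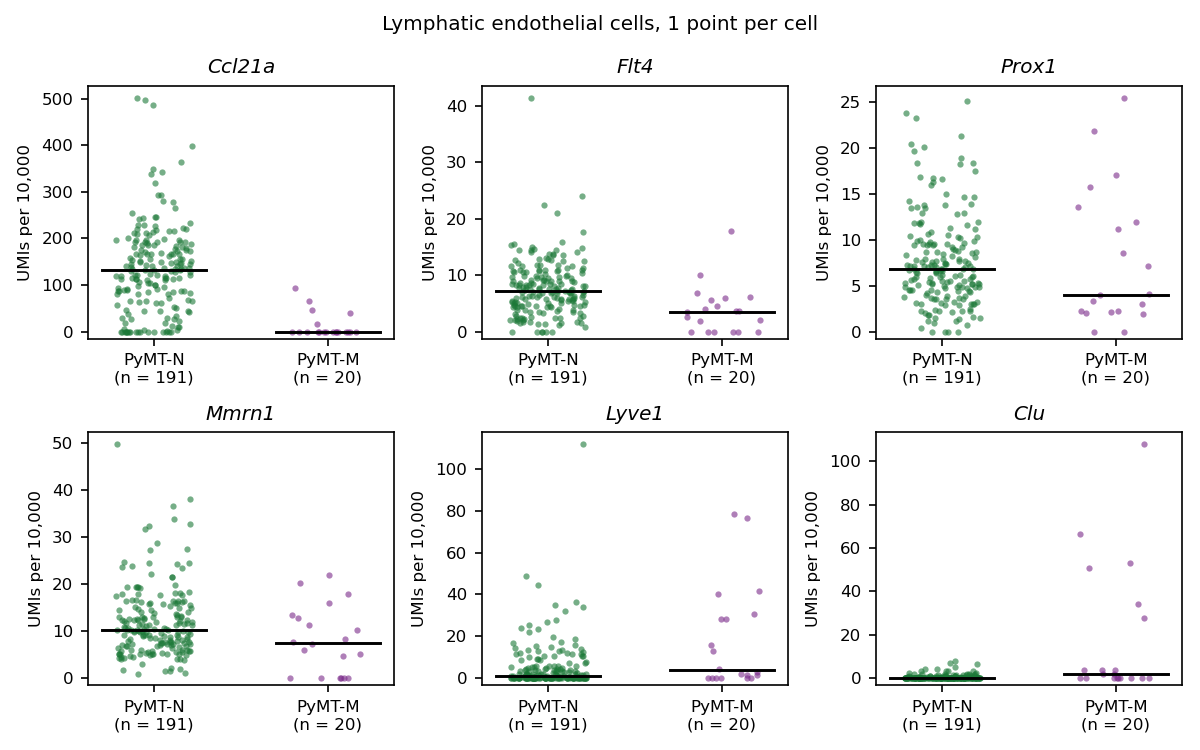
UMIs per 10000 of 6 genes in single lymphatic cells of PyMT-N (191) and PyMT-M (20), 1 point per cell, with the median as a black line. Ccl21a reaches 502 per 10,000 in PyMT-N with a median of 132, and is absent from 15 of the 20 PyMT-M cells, whereas Clu is higher in some PyMT-M cells.

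Across the 191 PyMT-N cells, which share 1 library and differ in depth, Ccl21a went most with Ltbp4 (Spearman 0.48), which stores TGF-beta in the matrix, and with Flt4 (0.42), Kctd12 (0.41), Ctsd (0.40) and Selenop (0.39). It went against Tnc (-0.40), a matrix protein of remodeling tissue, Thbs1 (-0.38), Adm (-0.36), Ccn1 (-0.34) and Igfbp7 (-0.33). The median size of the correlation over 4609 genes was 0.061. With Prox1 it was at -0.01, with Lyve1 at 0.01 and with Mmrn1 at 0.27. Mrc1 went with Itga9 (0.44), Ptx3 (0.43), Maf (0.42) and Gap43 (0.36). The valve gene Foxc2 went with the connexin Gja4 (0.36) and with Cldn11 (0.36), and Gja4 went against Gap43 (-0.42) and Mrc1 (-0.34). Foxc2 gave only 33 UMIs, in 17 of the 191 cells, and these values are descriptions in sparse counts. Foxc2 was also found in 24.2% of PyMT-N non-endothelial cells, against 8.90% of lymphatic cells (4.22% and 5.26% at 3000 UMIs).

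Between the libraries, 854 genes had a mean of at least 200 CPM over both sets of lymphatic cells. Of these, 29 were past 4-fold higher in PyMT-M (3.4%) and 19 were lower (2.22%), with a median log2 ratio of -0.012. The median ratio between the libraries in blood endothelial cells over these 854 genes was -0.046. Ccl21a was 8.68 times lower in PyMT-M lymphatic cells, a log2 ratio of -3.12 (-3.38 to -2.87). Nrp2, the co-receptor of Flt4, was 5.20 times lower (188 against 977 CPM), the choosing gene Reln 7.08 times lower, and Piezo2, a stretch-activated channel, 5.36 times lower (141 against 755 CPM). The ratios of Nrp2 and Piezo2 in blood endothelial cells were -0.12 and -1.12 on the log2 scale. Syne1, which links the nucleus to the cytoskeleton, stood at 129 against 524 CPM, and Asap1, which regulates Arf GTPases, at 200 against 720 CPM, which was within 4-fold. Nlgn1, Gap43 and Col23a1 were at least 13.8, 13.4 and 11.4 times lower, counted against a floor of 3 UMIs over the PyMT-M cells. Mrc1 was 22.9 times lower, from 1 UMI, with an interval of 4.09 to 905.

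Higher in PyMT-M were Clu (clusterin), a secreted chaperone, at 1868 against 37.8 CPM, Srgn (serglycin), a granule proteoglycan, at 599 against 16.6 CPM, Tspan7, a tetraspanin, at 423 against 14.96 CPM, and Ednrb, an endothelin receptor, at 493 against 22.8 CPM. The ratios were 49.4, 36.1, 28.3 and 21.6. In blood endothelial cells the PyMT-M over PyMT-N log2 ratios of these genes were 0.54, 0.97, -0.14 and 0.07. Glycam1, a mucin-like ligand of L-selectin known from high endothelial venules and mammary tissue, stood at 3572 against 28.7 CPM, from 304 UMIs in 4 PyMT-M cells and 69 UMIs in 4 PyMT-N cells. In blood endothelial cells it stood the other way, at 0.927 CPM in PyMT-M and 154 CPM in PyMT-N. Ccl20, a chemokine for cells that bear Ccr6, gave 65 UMIs in 4 PyMT-M lymphatic cells and none in PyMT-N. The same 4 cells carried Glycam1 and Ccl20. Foxp2, a transcription factor, stood at 552 CPM in 14 of 20 PyMT-M cells against 50.3 CPM in 36 of 191 PyMT-N cells.

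These differences did not come evenly from the 20 PyMT-M cells. They divided, by a criterion chosen after their values were seen, into 14 cells with an Mmrn1 UMI (59223 UMIs in all, median 3885 per cell) and 6 without (25890 UMIs, median 4626). The 6 cells had no Reln UMI either, so the choosing rule required both Prox1 and Lyve1 of them, and these stood at 734 and 1391 CPM against 844 and 1824 CPM in the other 14. They had no UMI of Ccl21a, whereas 5 of the 14 had Ccl21a (2111 CPM). The 6 cells held 152 of the 159 Clu UMIs, 48 of 51 Srgn UMIs, 34 of 36 Tspan7 UMIs and all 304 Glycam1 UMIs. Itga2b, an integrin chain known from platelets and from lymph node sinus endothelium, was found in all 6 and in none of the 14, as was Robo1, a Slit receptor. Cd55, which restrains complement, gave 73 UMIs in the 6 cells and 10 in the 14, and Hs6st3, a heparan sulfate enzyme, 89 and 2. Vcam1, a leukocyte adhesion molecule, gave 22 UMIs in 5 of the 6 and 2 in 1 of the 14, and Cd74, the MHC class II chaperone, was found in all 6 and in 2 of the 14. In reverse, the flow-responsive factor Klf2 gave 88 UMIs in 9 of the 14 and none in the 6, and the tetraspanin Cd9 109 UMIs in all 14 and 1 UMI in the 6. Listed genes of lymph node lymphatics summed to 1931 CPM in the 6, 371 CPM in the 14 and 565 CPM in PyMT-N lymphatic cells, where Mrc1 gave 47.5%. Marco, a member of this list, came from 1 of the 6 cells alone with 15 UMIs. No name was given to these cells, since they were divided on measured values.

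With only the 14 cells that had Mmrn1, the PyMT-M over PyMT-N log2 ratio was 1.64 for Clu (0.29 to 2.75), 1.61 for Srgn (-0.73 to 3.26) and 1.18 for Tspan7 (-1.92 to 3.13), and Glycam1 had no UMI. Ednrb kept a ratio of 3.96 (3.16 to 4.70). Ccl21a was at -2.60 (-2.86 to -2.34) and Nrp2 at -2.05. Piezo2 at -1.90 (-2.85 to -1.09) and Syne1 at -1.96 (-3.17 to -0.97) were still lower but no longer past 4-fold. In all, 24 genes were then past 4-fold higher and 19 lower, and of the 29 and 19 genes past 4-fold with all cells, 13 and 16 were among them. Ccl21a and Nrp2 were lower in PyMT-M with all 20 cells and with the 14. The 14 are part of the 20 and held all 125 Ccl21a UMIs, so this is no separate check. The higher Clu, Srgn, Tspan7 and Glycam1 came mainly or wholly from the 6 cells.

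**Figure D5:**
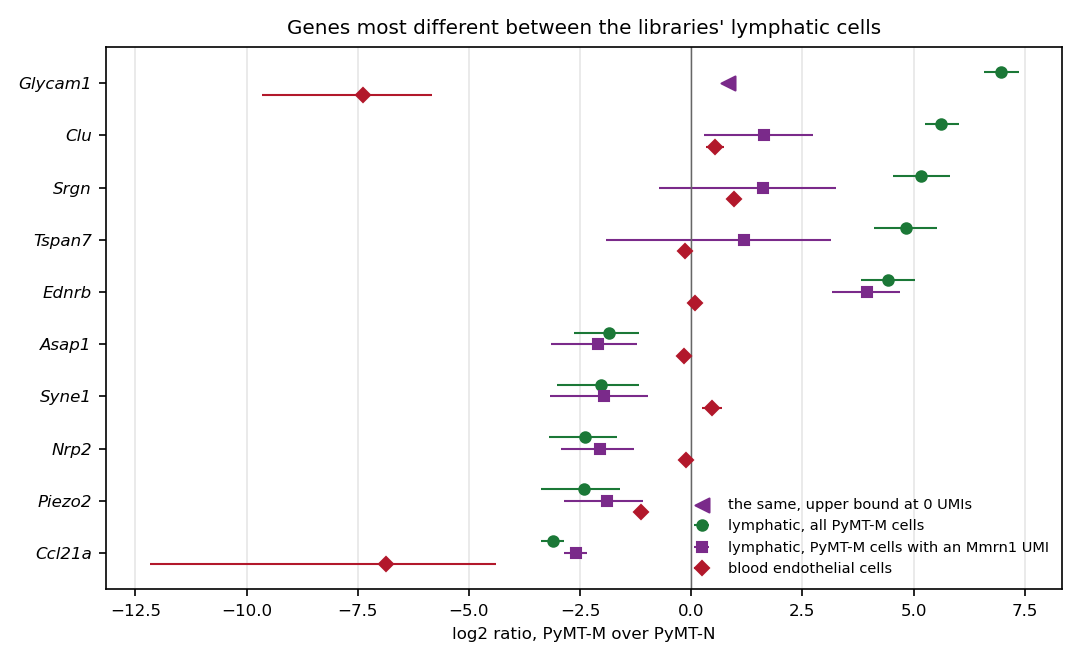
PyMT-M over PyMT-N log2 ratio (x axis) for the 10 genes named by the fixed rule, in all lymphatic cells (green circles), with only the 14 PyMT-M cells that had an Mmrn1 UMI (purple squares, with a triangle for an upper bound), and in blood endothelial cells (red diamonds). Bars are 95% intervals for counting error only. Ccl21a is at -3.12 with all cells and -2.60 with the 14, whereas Clu goes from 5.63 to 1.64.

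Summed over lists, interferon-induced genes stood higher in PyMT-M in both classes and in non-endothelial cells. In non-endothelial cells the alpha/beta genes stood at 3867 CPM in PyMT-M against 1970 CPM in PyMT-N, and the gamma genes at 847 against 445 CPM. The 22 interferon alpha/beta genes had a PyMT-M over PyMT-N log2 ratio of 1.31 in lymphatic and 1.28 in blood endothelial cells. The 22 interferon gamma genes had 1.23 and 1.28. Only 6 and 3 of the genes were ranked in lymphatic cells. None of these was past 4-fold, beside 3.4% higher and 2.22% lower of the 854 ranked genes. Ifitm3 gave 47.5% of the alpha/beta UMIs in the lymphatic cells of either library. Summed interferon alpha/beta genes were at 16818 CPM in the 14 PyMT-M cells with Mmrn1, 8536 CPM in the 6 without and 5773 CPM in PyMT-N lymphatic cells. Ifitm3, an antiviral membrane protein, stood at 6791 CPM in PyMT-M and 2740 CPM in PyMT-N lymphatic cells, and was found in every lymphatic cell of both libraries. B2m, the light chain of MHC class I, stood at 3031 and 1610 CPM, and H2-K1, a heavy chain, at 2808 and 1072 CPM. The 16 class I genes together had a ratio of 1.20 in lymphatic and 0.98 in blood endothelial cells, and summed to 12039 CPM in the 14 cells with Mmrn1 and 11974 CPM in the 6 without. Genes of dissociation and immediate early response had a ratio of 1.55 in lymphatic and 0.17 in blood endothelial cells, with Jun at 916 against 222 CPM in lymphatic cells. The part of dissociation in the differences between lymphatic cells of the libraries was not tested.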

How the data were processed

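Single-cell RNA was measured in 1 PyMT-M and 1 PyMT-N library, each a pool of 3 tumors, with 10x Genomics 3′ chemistry. The authors deposited UMI counts, whole numbers for each gene and cell barcode without normalization, over 33696 genes. Per the submitters' processing notes they used Cell Ranger 8.0.0 and mm39. The annotation release was not found in the sources used. Sequences came from RefSeq on GRCm38.p6 and were not joined to the counts by position.

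The members and gene lists were chosen with earlier results of these data known. Blood endothelial cells were also held to at most 1 leukocyte or tumor UMI, which is added here. No doublet caller was run, and 13 PyMT-N and no PyMT-M lymphatic cells had over 2 times the median UMIs of their class. Non-endothelial cells had no UMI of Pecam1, Cdh5, Flt1, Emcn or Kdr.

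UMIs were summed by class and library, scaled to a total of 1000000 (CPM) and compared as ratios with exact Poisson intervals. Shares have exact Clopper-Pearson intervals. A gene was ranked at a mean of at least 20 CPM over both classes, or 200 CPM between libraries, and counted past 4-fold. A gene without UMIs was set against 3 counts over the class. Genes named are those of the choosing rule, the 20 with the highest and 20 with the lowest lymphatic ratio in PyMT-N (5 CPM added to both sides for ranking), the 5 highest and 5 lowest between libraries with at least 10 UMIs in the lower one, the 10 most variable, the 5 most and 5 least correlated with Ccl21a, and members of 40 lists. Foxp2, Cd55, Ccl20 and Hs6st3 were named after their values were seen. The scripts were tested on simulated data. Work was done in Python 3.11.15 with scipy 1.17.1, numpy 2.4.6 and pandas 2.3.3, and figures with matplotlib 3.10.9. Alternatives varied the quality limits, the choosing rule, the scaling, the minimum CPM, the fold, depth and single cells left out.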

Additional observations from a re-analysis of the deposited data

Results flagged for a closer look

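Some genes and lists were higher in lymphatic than in blood endothelial cells of one library and lower in the other. With 1 library for each condition none of these differences was tested. On the log2 scale, PyMT-M before PyMT-N, the ratios were 11.91 and -2.42 for Glycam1, 4.43 and -0.66 for Clu, 1.49 and -2.87 for Ednrb, 1.32 and -2.88 for Srgn, and 1.32 and -3.65 for Tspan7. In the 14 PyMT-M cells with an Mmrn1 UMI, Srgn (50.7 CPM) and Tspan7 (33.8 CPM) stood below PyMT-M blood endothelial cells (239 and 170 CPM) and Glycam1 had no UMI, so their opposite signs came from the other 6 cells, while Clu (118 against 86.8 CPM) and Ednrb (355 against 175 CPM) stood above. Bmp2, a ligand of BMP receptors, was at 0.87 and -7.89, with its 18 PyMT-M UMIs in 3 cells that had no Mmrn1 UMI. Asap1 was at -0.86 and 0.83, and Piezo2 at -0.92 and 0.39.

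Summed lists, with PyMT-M again first, gave 0.98 and -0.06 for collecting vessel and valve genes, and 0.36 and -0.37 for leukocyte adhesion genes. Junction genes were at 0.16 and -0.28, hemostasis genes at 0.77 and -1.31, and MHC class I genes at 0.19 and -0.03. Dissociation and immediate early genes were at 1.03 and -0.35. For the 10 ranked collecting vessel and valve genes the PyMT-N median was 1.29, so the negative sign of this list holds for its sum only. Esam gave 48.3% of the UMIs of the list in blood endothelial cells of that library.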

How the results depend on the processing

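Without the 6 PyMT-M cells that lacked Mmrn1, several PyMT-M comparisons turned or were lost. Srgn (50.7 against 239 CPM) and Tspan7 (33.8 against 170 CPM) went from above to below blood endothelium and Angpt2 (355 against 280 CPM) and Lama4 (625 against 512 CPM) from below to above, Bmp2 and Glycam1 had no UMI, and the ratio of Glycam1 between the libraries became an upper bound of 0.82. Without the leukocyte and tumor limit on blood endothelial cells the lymphatic share of PyMT-N was 13.5%. In PyMT-M the share ranged from 2.13% (thinned to 3000 UMIs) to 3.85%, at 2.56% within 2-fold of the library's median number of detected genes, a limit that 8 of the 20 PyMT-M and 184 of the 191 PyMT-N lymphatic cells met, and was 2.43% without the 6 cells that lacked Mmrn1, an alternative chosen after seeing the data. With the minimum CPM doubled, 159 genes were past 4-fold higher in PyMT-N lymphatic cells, and at a 2-fold threshold 534 were higher and 513 lower. Between libraries, counts of higher and lower genes were 10 and 3 with the minimum CPM doubled, 81 and 46 with it halved, and 105 and 71 at a 2-fold threshold. Thinned to 3000 UMIs, 173 genes had a variance at least 2 times the expectation. Of the other shares and counts under an alternative, 57 stayed within the interval of the share or within 1.5 times the count. For single genes 444 values stayed within the counting interval (within 0.5 on the log2 scale where there was none) and 59 moved out of it.

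No paired analysis was possible because the labels carry no replicate numbers and each condition has 1 library. The 85113 UMIs of the 20 PyMT-M lymphatic cells limit most statements on that library, since a gene needs about 11.7 CPM to give 1 UMI.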

Other observations

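UMIs of cell division genes were found in part of the PyMT-N lymphatic cells, and the part of background RNA in them was not tested. At 3000 UMIs per cell Top2a was found in 6.84% of lymphatic, 5.36% of blood endothelial and 3.89% of non-endothelial cells of PyMT-N. Top2a, a topoisomerase of dividing cells, was found in 32 of 191 cells at 84.3 CPM and had no UMI in the 20 PyMT-M cells, against 57.9 and 124 CPM in blood endothelial cells of PyMT-N and PyMT-M. Hmgb2 stood at 167 CPM in PyMT-N and 23.5 CPM in PyMT-M lymphatic cells, the latter from 2 UMIs.

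Fabp4, which carries fatty acids and is known from capillaries, stood at 928 CPM in PyMT-M lymphatic cells, from 79 UMIs in 6 of 20 cells, and at 80.2 CPM in PyMT-N, from 25 of 191 cells. None of the PyMT-M cells with Fabp4 had a Ccl21a UMI. Igfbp5 gave 80 UMIs in 6 PyMT-M cells, 2 of which also had Fabp4. Ackr4, a decoy receptor for Ccl21 and related chemokines, gave 44 UMIs in 6 PyMT-N and 14 UMIs in 4 PyMT-M lymphatic cells, and Il33, an alarmin cytokine, 4 UMIs in 1 PyMT-N and 13 UMIs in 6 PyMT-M cells.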
